A study of Mus musculus with 24 samples.

Results

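Bone marrow-derived dendritic cells (BMDCs) lacking tristetraprolin (TTP) were compared with WT BMDCs after 9 h of stimulation with lipopolysaccharide (LPS), the cell wall component of Gram-negative bacteria that is sensed by TLR4. The comparison took 6 of the 24 RNA-Seq libraries of the series, the 3 TTP-/- and the 3 WT libraries whose labels give 9 h of LPS, and it is described across all genes of their expression table. All mice were C57BL/6 and 9 to 12 weeks old. TTP-/- mice carry the deletion in the whole body, so that the marrow from which these cells were grown lacked TTP as well, and the WT mice carry no deletion. Marrow of femur and tibia was grown in GM-CSF for both genotypes, and both received 10 ng/ml LPS. The triplicates are described as biological, but how many mice gave each culture is not stated in the sources used here. Poly(A) RNA was sequenced single-end, and the deposited values are FPKM (fragments per kilobase and per unit of library depth), here scaled by the span of the gene with its introns. The table held 20888 gene IDs, of which 7745 passed a minimum of 0.5 FPKM in the mean of the 6 libraries and were tested with limma on log2(FPKM + 0.1), and a gene was called higher or lower in TTP-/- cells at an adjusted p of at most 0.05. Fold changes are TTP-/- over WT on this log2 scale, so that the fold changes of weakly expressed genes are understated.

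TTP, encoded by *Zfp36*, is a zinc finger protein that binds AU-rich elements in the 3′ untranslated region (3′ UTR) of messages and recruits the deadenylation machinery, after which the message is degraded. Its best known targets encode cytokines and chemokines of the inflammatory response, among them *Tnf*. Mice without TTP develop a wasting, arthritic disease with myeloid hyperplasia, and much of it depends on excess TNF. GM-CSF cultures of bone marrow are widely used as a source of dendritic cells, and they also give rise to macrophages and granulocytes.

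The core of the AU-rich element, TATTTAT on the sense strand, was searched in the longest annotated 3′ UTR of each gene, and overlapping matches were counted separately. It was present at least once in 26.5% of the 6403 tested genes with an annotated 3′ UTR. For 8 genes picked as examples, the stretch of 30 bases with the most matches is shown, in the order of their fold change. Matches are in capitals (RNA sense, 5′ to 3′, GRCm38 and GENCODE M21). Other large rises, such as *Saa3* (4.35) and *Hmox1* (3.28), held no match and are not shown. *Il12a* (chr3:68698436-68698465, plus strand, 5 matches in the UTR), *Cxcl2* (chr5:90905326-90905355, plus, 7), *Il27* (chr7:126589087-126589116, minus, 4), *Tnf* (chr17:35199677-35199706, minus, 8) and *Il1b* (chr2:129364801-129364830, minus, 3) were higher in TTP-/- cells. *Pim1* (chr17:29495691-29495720, plus, 4) and *Dusp1* (chr17:26506158-26506187, minus, 3) did not pass the test, and *Zfp36* itself (chr7:28376958-28376987, minus, 3) was lower.
Il12a: cTATTTATATTTATTTATtttcTATTTATt
Cxcl2: tTATTTATTTATctatgTATTTATTTATtt
Il27: gaTATTTATttcttggaTATTTATTTATtt
Tnf: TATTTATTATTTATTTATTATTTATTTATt
Il1b: ttaccTATTTATTTATgTATTTATtgattg
Pim1: taatgTATTTATTTATTTATTTATttggtt
Dusp1: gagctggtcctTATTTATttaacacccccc
Zfp36: ccttTATTTATgacgacttTATTTATtgta
The *Pim1* window holds 4 overlapping matches, as many as the windows of *Il12a* and *Cxcl2*.

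*Zfp36* (chr7:28376784-28380253, minus strand) was still detected in the knockout. Its message was at 155, 162 and 156 FPKM in TTP-/- libraries, against 198, 234 and 221 FPKM in WT libraries. Every TTP-/- library lay below every WT library, with a log2 fold change of -0.46 (SE 0.093, adjusted p = 0.00714). The exact permutation test over the 6 libraries gave a two-sided p of 0.1, the smallest that 3 against 3 libraries allow. The deposited values give 1 number for the whole gene, so the deleted part cannot be seen apart and the level does not check the genotype by itself. The libraries held 20035931 to 23235117 reads assigned to genes in TTP-/- cells and 21599393 to 22635572 in WT cells, and a principal component analysis of the 500 most variable genes put 85.5% of the variance on the first axis, which separated the genotypes.

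Of the 7745 genes tested, 1389 (17.9%) were higher and 1530 (19.8%) were lower in TTP-/- cells, so that 37.7% were called. These shares are the background of each list count below. The rises were larger than the falls. Among the genes called higher the median log2 fold change was 0.89, and among those called lower it was -0.56. A rise of at least 2 on the log2 scale was seen in 275 genes and a fall of that size in 5. The groups did not overlap in 51.8% of all tested genes, 22.7% with TTP-/- libraries higher and 29% with them lower. The balance of the calls moved with the scaling: with values scaled to a common total (TPM) the median of all genes shifted to 0.08, from -0.06 as deposited, and 1573 genes were higher and 804 lower, 66.2% higher against 47.6%. No gene was called in the opposite direction under any alternative tried.

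**Figure D1:**
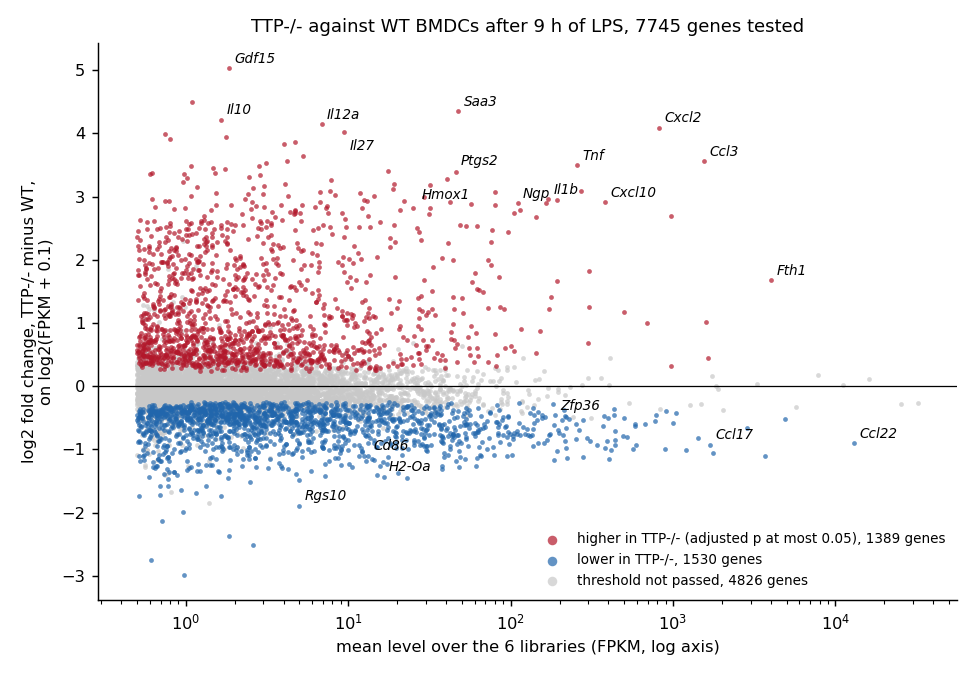
Log2 fold change (TTP-/- over WT, y axis) of the 7745 tested genes against their mean level over the 6 libraries (FPKM, log axis), with called genes coloured. The rises reach 5.04 and the falls -2.98, and most genes past a log2 fold change of 2 are rises.

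*Tnf* and the other cytokine genes of the macrophage and dendritic cell response were among the largest rises. Of 21 tested cytokine genes, 17 were higher and 2 lower, where 17.9% and 19.8% of all tested genes were called in those directions, with a median log2 fold change of 2.13 against -0.06 over all genes tested. Without the third TTP-/- or the first WT library 1 was lower, and under TPM scaling none. *Tnf* was at 504, 483 and 426 FPKM in TTP-/- libraries, against 36.1, 44.6 and 44.1 FPKM in WT libraries. All TTP-/- values were above all WT values, by a log2 fold change of 3.50 (SE 0.118, adjusted p = 5.74e-06). *Il1b*, encoding the inflammasome-processed cytokine IL-1 beta, was at 270.2, 402 and 238 FPKM, against 32.3, 42.8 and 39.7 FPKM in WT (log2 fold change 2.96). *Il1a*, its membrane-associated relative, was at 167, 236 and 149 FPKM, against 23.1, 27.0 and 31.4 FPKM in WT (2.74). The groups were far apart for both, and the second TTP-/- library was the highest for each. *Il6*, encoding a fever and acute-phase cytokine, rose less, by 1.53 (SE 0.245, adjusted p = 0.00253), with 76.6, 129 and 72.6 FPKM in TTP-/- cells, against 29.9, 25.8 and 38.3 FPKM in WT cells.

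Of 5 measured chains of the heterodimeric IL-12 family 4 rose, unequally, and 1 was lower. *Il12a*, which encodes the p35 chain of IL-12, was at 12.0, 17 and 10.3 FPKM in TTP-/- libraries, against 0.710, 0.524 and 0.670 FPKM in WT libraries. *Il12b*, the p40 chain shared by IL-12 and IL-23, was at 239, 282 and 205 FPKM, against 100.1, 109.9 and 98.8 FPKM in WT. The log2 fold changes were 4.14 for *Il12a* and 1.22 for *Il12b*, and neither gene's groups overlapped. *Il23a*, the p19 chain of IL-23, rose by 2.13, and *Il27*, the p28 chain of IL-27, by 4.03. *Il27* was at 17.2, 19.8 and 16.6 FPKM in TTP-/- cells and at 1.01, 0.944 and 1.04 FPKM in WT cells, with little spread in either group. *Ebi3*, the other chain of IL-27, was lower, at 125, 115 and 120 FPKM in TTP-/- libraries, against 153, 161 and 145 FPKM in WT libraries (-0.35, adjusted p = 0.0177). It lost the call without the third TTP-/- library (adjusted p = 0.0535), without the first WT library (0.0530) and under TPM scaling.

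*Il10*, the main anti-inflammatory cytokine of myeloid cells, was close to background in WT BMDCs and clearly present in TTP-/- BMDCs. It was at 2.81, 4.74 and 2.09 FPKM in TTP-/- libraries, against 0.0875, 0.0475 and 0.0730 FPKM in WT libraries, where it rested on 5 to 10 reads a library. *Gdf15*, a stress-induced member of the TGF-beta superfamily, gave the largest rise of all tested genes. It had 258, 232 and 284 reads in TTP-/- libraries, against 1, 0 and 2 reads in WT libraries, a ratio of 239 after scaling with a 95% exact counting interval of 81.6 to 1163 that covers counting error only. *Csf3* (G-CSF, the growth factor of neutrophils) rose by 3.56 and *Ifnb1* (interferon beta) by 2.33. *Ifnb1* rested on 26 to 30 reads a library in TTP-/- cells and 3 to 5 in WT cells. *Csf2* (GM-CSF), the classical TTP target with 9 TATTTAT matches in its 3′ UTR, stayed below the filter at 0.285, 0.465 and 0.448 FPKM in TTP-/- cells, against 0.0375, 0.163 and 0.0782 FPKM in WT cells. With read counts and a minimum of 10 reads in place of the FPKM filter, all 15 messages listed as TTP targets were tested, *Csf2* among them. Of these 13 were higher and none lower, where 21.6% of all 13620 genes so tested were higher.

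**Figure D2:**
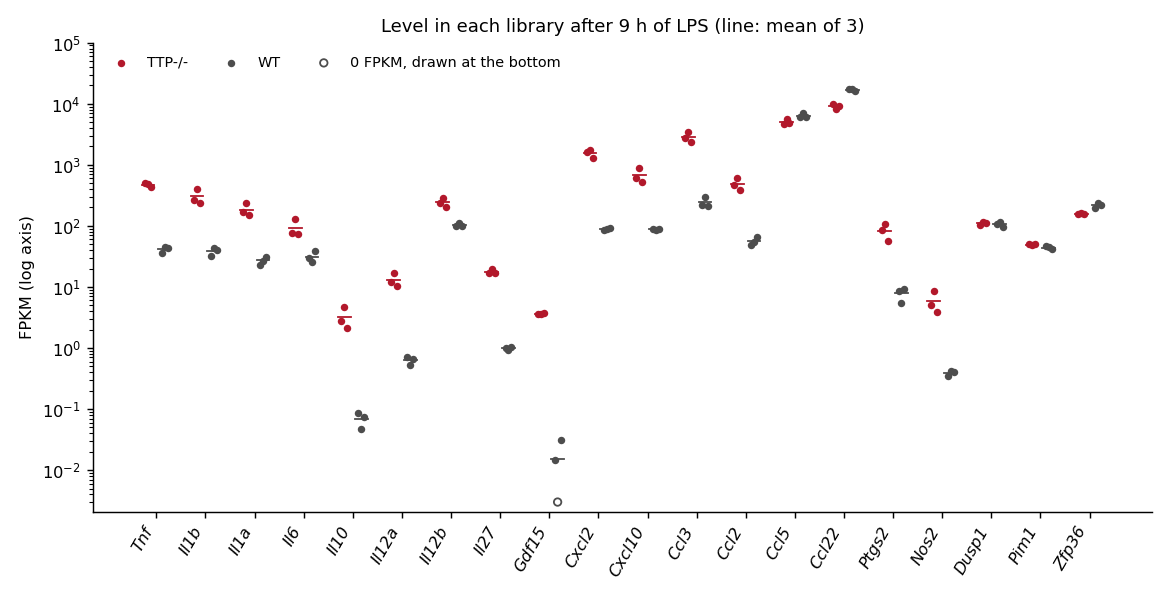
FPKM (log axis, y axis) of cytokine, chemokine and comparison genes (x axis) in each of the 3 TTP-/- and 3 WT libraries, 1 point per library with a line at the group mean, and a value of 0 drawn open at the bottom. For *Tnf*, *Il1b*, *Cxcl2* and *Il12a* all TTP-/- points lie above all WT points, for *Dusp1* the groups overlap, and for *Ccl22* the TTP-/- points lie below.

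Neutrophil- and monocyte-attracting chemokines rose, and the chemokines typical of mature dendritic cells fell. Of 10 CC chemokine genes 7 were higher and 2 lower, and of 10 CXC chemokine genes 8 were higher and none lower. Over all tested genes 17.9% were higher and 19.8% lower. *Cxcl2*, a ligand of the neutrophil receptor CXCR2, was at 1620.3, 1717 and 1312 FPKM in TTP-/- libraries, against 87.0, 90.0 and 94.0 FPKM in WT libraries (log2 fold change 4.09, SE 0.119, adjusted p = 5.74e-06). The lowest TTP-/- library was thus far above the highest WT library. *Ccl3*, which draws monocytes and T cells, was at 2749, 3473 and 2351 FPKM, against 223, 294 and 208 FPKM in WT (3.56). *Ccl2*, the main monocyte attractant, was at 467, 605 and 379.7 FPKM, against 48.5, 53.6 and 66.8 FPKM in WT (3.09). *Cxcl10*, an interferon-induced ligand of CXCR3, rose by 2.91, *Cxcl3* by 2.69 and *Ccl4* by 2.43. No TATTTAT was found in the annotated 3′ UTR of *Ccl2* or *Cxcl10*.

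*Ccl22* and *Ccl17*, the CCR4 ligands secreted by mature dendritic cells, went the other way. *Ccl22* had the highest FPKM of all called genes in both genotypes. It was at 9909.6, 8307 and 9111 FPKM in TTP-/- libraries, against 17663, 17174 and 16087 FPKM in WT libraries, and took 5.23 to 6.30% of all assigned reads in TTP-/- cells and 9.61 to 10.6% in WT cells. Its log2 fold change was -0.90 (adjusted p = 0.000468), and the call was lost when the filter on low values was removed or an absolute log2 fold change of at least 1 was asked for. *Ccl17* was at 1037, 1265 and 1196 FPKM, against 1887, 2412 and 2349.7 FPKM in WT (-0.92). *Ccl5*, a chemokine of late activation, was at 4656, 5645 and 4924 FPKM, against 6094, 6932 and 5976 FPKM in WT, and missed the threshold (-0.32, adjusted p = 0.0593). It passed without the second TTP-/- library (-0.40, adjusted p = 0.0342).

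Chemokine receptors of innate cells were higher as well. Of 10 tested, 8 were called higher and 1 lower, against 17.9% and 19.8% of all tested genes. *Ccr1*, a receptor for CCL3, was at 19.4, 21.7 and 18.4 FPKM in TTP-/- cells, against 3.33, 3.18 and 3.61 FPKM in WT cells (2.52). *Ccr3*, which eosinophils carry, rose by 2.68, and the formyl peptide receptor gene *Fpr2* by 2.53. The lower gene, *Ccr7*, the receptor that guides mature dendritic cells to lymph nodes, was at 391, 331 and 417 FPKM in TTP-/- libraries, against 482, 516 and 464 FPKM in WT libraries (-0.37, adjusted p = 0.0371). Its call was lost under TPM scaling and without any single library other than the third TTP-/- one (adjusted p of 0.0692 to 0.0924). The receptors called higher are also carried by granulocytes and monocytes, whose marker genes were higher too (given below with their values), and the part of those cells in these results was not tested. In RNA from a whole culture, fewer cells of a type and less RNA per cell cannot be told apart. Among 18 cytokine receptor genes 11 were higher and 3 lower, led by *Csf1r* (M-CSF receptor, 2.61), *Csf3r* (G-CSF receptor, 2.58) and *Il1rn* (the secreted IL-1 receptor antagonist, 2.47). *Csf2rb*, the common beta chain through which the GM-CSF of the culture acts, did not pass the test, with 75.2, 64.4 and 63.2 FPKM in TTP-/- cells and 61.5, 55.3 and 53.8 FPKM in WT cells.

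Of 14 tested genes from a list of messages reported as TTP targets, 12 were higher and none lower, against 17.9% and 19.8% of all tested genes. Their median log2 fold change was 2.44. The 2 that did not pass were *Dusp1*, a phosphatase that switches off p38, and *Pim1*, a serine-threonine kinase. *Dusp1* was at 104, 117 and 111 FPKM in TTP-/- libraries, against 108, 115 and 96.7 FPKM in WT libraries, and the groups overlapped. *Pim1* was at 50.2, 48.2 and 50.1 FPKM, against 46.7, 44.5 and 41.1 FPKM in WT, with a log2 fold change of 0.17 (SE 0.086). *Ier3*, an immediate-early gene with 4 matches, rose by 1.49, and *Myc*, whose annotated 3′ UTR held no TATTTAT, by 1.20.

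Over all genes, the share with the element differed little between genes that rose and genes that did not. TATTTAT was present in 27.0% of the genes called higher, in 25.6% of those called lower and in 26.6% of those not called. It was present in 21.1% of the 242 genes that rose by at least 2 on the log2 scale, whose annotated 3′ UTRs were shorter (median 614 bases against 1029 over all tested). Genes with 4 or more matches were called higher in 27.6% of 87 cases and lower in 12.6%, against 19.5% and 19.0% of the 4706 genes without a match. Among genes whose 3′ UTR was 500 to 1000 bases long, 33.3% of those with a match and 19.6% of those without were higher. Up to 500 bases these shares were 24.6% of 122 genes with a match and 20.7% of 1690 without. At 1000 to 2000 bases the shares were 21% and 21.1%, and above that 15% and 15%. Among the cytokine and chemokine genes, 22 of 24 with a match were higher, with a median log2 fold change of 2.56, and 10 of 17 without one, with a median of 1.23. These shares are descriptions, and a match is not a measured binding site.

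**Figure D3:**
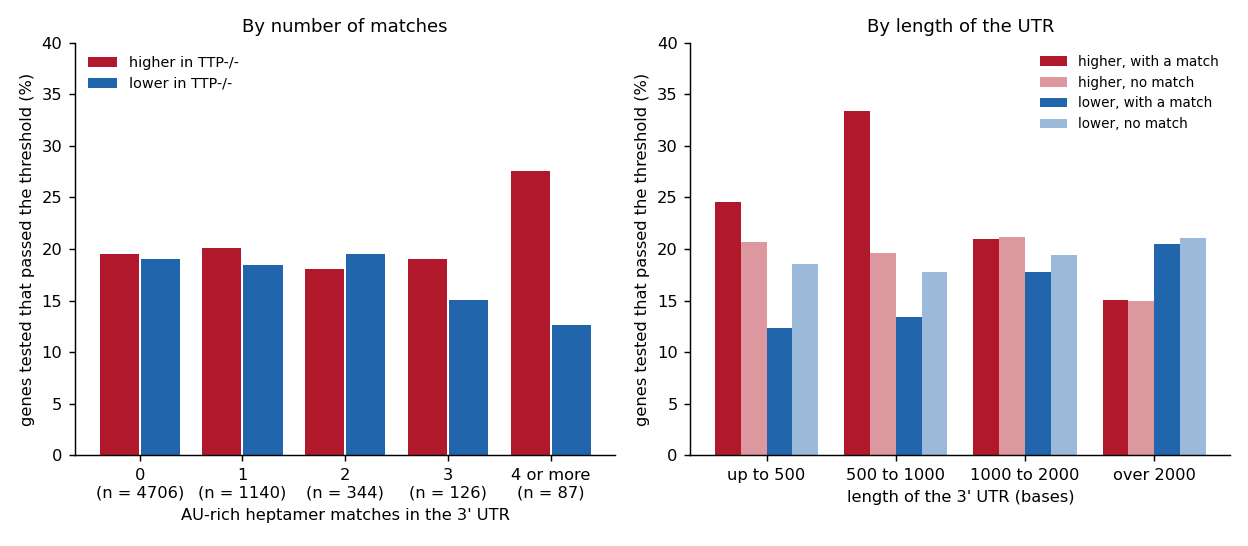
Share of tested genes called higher and called lower in TTP-/- cells (percent, y axis) by the number of TATTTAT matches in the annotated 3′ UTR (left) and by the length of that UTR in bases, with and without a match (right). The shares differ little up to 3 matches, and with 4 or more 27.6% were higher and 12.6% lower.

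Receptors and adaptors of LPS sensing moved in both directions. Of 27 tested genes of Toll-like receptor and NF-kB signalling, 13 were higher and 4 lower, with a median log2 fold change of 0.23. *Cd14*, the LPS co-receptor, was at 119.7, 158 and 99.5 FPKM in TTP-/- libraries, against 22.1, 28.0 and 25.9 FPKM in WT libraries (2.29). *Tlr2*, the receptor for bacterial lipopeptides, rose by 2.55, *Tlr7*, for single-stranded RNA, by 2.49 and *Irak3*, an inhibitor of the pathway, by 1.96. *Traf6*, the ubiquitin ligase downstream of MyD88, was lower, at 7.66, 7.76 and 7.73 FPKM, against 11.8, 13.7 and 13 FPKM in WT (-0.72, adjusted p = 0.000615), and *Rel*, the c-Rel subunit, fell by 0.69. The groups did not overlap for either. *Nfkbia*, the inhibitor induced by NF-kB itself, did not pass the test, at 204, 207 and 206 FPKM in TTP-/- cells and 246, 216 and 218 FPKM in WT cells.

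Among immediate-early genes, *Egr1* (2.22) and *Nr4a1* (1.76), both early transcription factors, were higher, within 8 higher and 1 lower of 14. That count was 5 higher without the first TTP-/- library and also without the third WT library. Of 6 MAP kinase phosphatases, *Dusp6*, which acts on ERK, rose by 2.51 and *Dusp14* fell by 1.00. In the p38 pathway, which controls the activity of TTP, *Mapk14* (p38 alpha) was at 0.894, 0.846 and 0.897 FPKM in TTP-/- cells and 0.364, 0.478 and 0.445 FPKM in WT cells (0.89).

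Few of the other AU-rich element binders and of the decay machinery genes were called. Of 12 tested binders and relatives of TTP, 2 were higher and, with *Zfp36* itself, 1 lower, where 17.9% and 19.8% of all tested genes were. Without the first TTP-/- library 1 was higher and 2 were lower. *Zfp36l2*, a paralogue of TTP known for its roles in lymphoid and germ cells, was at 15.6, 13.2 and 13 FPKM in TTP-/- libraries, against 3.98, 3.35 and 3.17 FPKM in WT libraries (1.96, SE 0.120). *Zfp36l1*, the other paralogue in this list, was at 119.7, 88.9 and 91.7 FPKM, against 154, 121 and 125 FPKM in WT, and did not pass (-0.42, adjusted p = 0.0646), although it did without the first TTP-/- library (-0.56, adjusted p = 0.0278). Of 26 genes of deadenylation, decapping and exosome complexes 2 were higher and 3 lower, with a median of -0.10 that turned to 0.04 under TPM scaling. Under quantile normalization 8 were lower. All TTP-/- values lay below all WT values in 10 of the 26, and in 29% of all tested genes. *Btg2* (1.07) and *Tob1* (-0.78), both adaptors of the CCR4-NOT deadenylase, moved in opposite directions, and *Ddx6*, a helicase of decapping, fell by 0.57.

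Interferon-stimulated genes rose in part. Of 29 tested, 18 were higher and 2 lower, with a median of 0.44, and the 2 lower calls (*Mx1*, *Mx2*) were lost under TPM scaling and without the first or the third library of either genotype (adjusted p of 0.0678 to 0.137). Without the second TTP-/- library *Mx1* was lost as well, at an adjusted p of 0.0532. *Rsad2*, the antiviral enzyme viperin, was at 101, 135 and 83.5 FPKM in TTP-/- libraries, against 16.9, 19.3 and 17.8 FPKM in WT libraries (2.53). *Oas2*, a sensor enzyme for double-stranded RNA, rose by 3.21, *Ifit3* by 2.34 and *Cmpk2*, a mitochondrial nucleotide kinase, by 2.20. *Isg15*, a ubiquitin-like modifier, overlapped between the groups at 358, 390.3 and 379.9 FPKM in TTP-/- cells and 333, 386 and 311 FPKM in WT cells. The second WT library was low for some genes of this kind: *Ifit1* was at 47.6, 63.1 and 42.7 FPKM in TTP-/- libraries, against 17.7, 6.67 and 21.3 FPKM in WT libraries.

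Of 19 interferon regulatory factors, STATs and SOCS genes, 3 were higher and 5 lower, a count near the 17.9% and 19.8% of all tested genes. *Irf4*, a factor of the GM-CSF-dependent dendritic cell lineage, was at 19.2, 18.8 and 19.1 FPKM in TTP-/- libraries, against 36.5, 37.5 and 34.5 FPKM in WT libraries (-0.92), and *Irf8*, a factor of conventional and plasmacytoid dendritic cells, fell by 0.63. *Stat4*, which relays IL-12, fell by 1.03. *Socs1*, a feedback inhibitor of cytokine receptors, was at 121, 116 and 123 FPKM, against 57.9, 45.7 and 48.7 FPKM in WT (1.25).

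Messages of MHC class II antigen presentation were lower for the most part. Of 12 tested genes of this pathway, 9 were lower and none higher, with a median log2 fold change of -0.80. Of all tested genes 19.8% were lower and 17.9% higher. Under TPM scaling 9 of the 12 were lower and 1 was higher. *H2-Aa*, the alpha chain of I-A, was at 245, 256 and 261 FPKM in TTP-/- libraries, against 494, 525 and 490.0 FPKM in WT libraries (-0.98). *H2-Oa*, a modulator of peptide loading, was at 8.74, 8.79 and 9.09 FPKM, against 25.2, 24.5 and 22.6 FPKM in WT (-1.43, SE 0.082, adjusted p = 2.69e-05). *Cd74*, the invariant chain, fell by 0.46, and *Ciita*, the master activator of the class II genes, by 0.82. The TTP-/- values of each of these genes lay below all WT values. In MHC class I presentation 1 gene was higher and 5 lower of 15, and without the first or the second TTP-/- library 1 and 3 were lower, without the first or the second WT library 2 and 3. *B2m*, the light chain of class I, did not pass, at 1039, 1311 and 1087 FPKM in TTP-/- cells and 1354, 1469 and 1398 FPKM in WT cells, but passed without the second TTP-/- library (-0.40, adjusted p = 0.0190).

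Of 12 costimulatory and coinhibitory ligands, which give T cells a further signal beside antigen, 6 were lower, 1 was higher and 5 did not pass. Over all tested genes 19.8% were lower and 17.9% higher. *Cd86*, a ligand of CD28, was at 7.87, 8.64 and 8.62 FPKM in TTP-/- libraries, against 16.5, 17.7 and 20 FPKM in WT libraries (-1.10). *Cd80*, its partner ligand, fell by 0.67, *Tnfsf4* (OX40 ligand) by 0.85 and *Cd83*, a maturation marker, by 0.80. *Cd40*, the receptor for T cell help, was the gene called higher, by 0.43. *Cd274* (PD-L1) overlapped between the groups, at 55.5, 68.1 and 54.9 FPKM in TTP-/- cells and 55.5, 53.3 and 59.2 FPKM in WT cells.

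**Figure D4:**
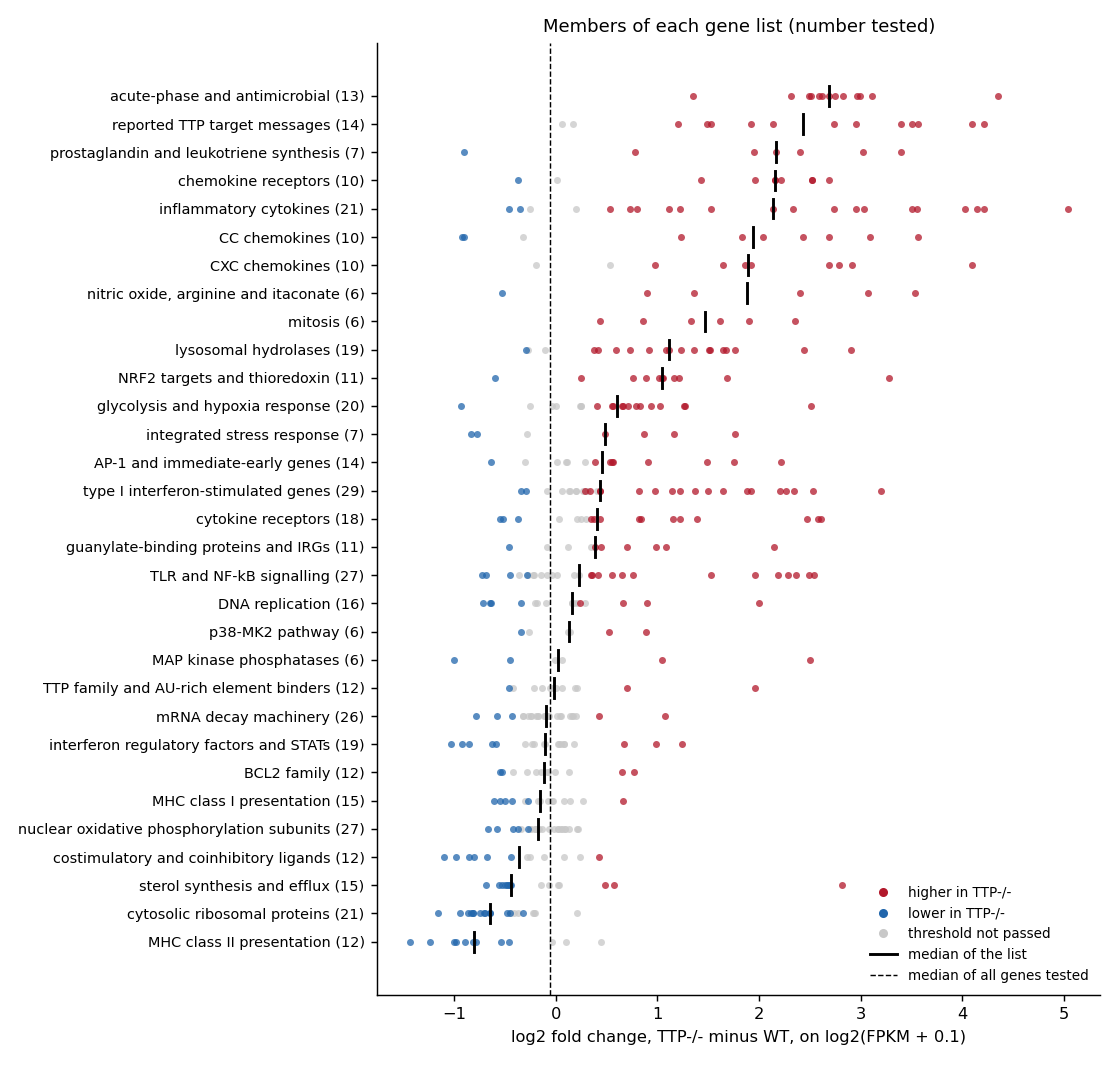
Log2 fold change (TTP-/- over WT, x axis) of each tested member of the gene lists, 1 row per pathway list with 6 or more tested members, with the list median as a black bar, the median of all genes as a dashed line and called genes coloured. The medians run between 2.69 for acute-phase and antimicrobial genes and -0.80 for MHC class II presentation.

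Effector enzymes and antimicrobial proteins of activated myeloid cells rose. All 13 tested acute-phase and antimicrobial genes were higher, against 17.9% of all tested genes, and their median was 2.69. *Saa3*, an acute-phase protein made by activated macrophages, was at 63.8, 142 and 68.2 FPKM in TTP-/- libraries, against 3.38, 4.90 and 4.10 FPKM in WT libraries (4.35, SE 0.306, adjusted p = 5.35e-05). The second TTP-/- library stood above the other TTP-/- libraries, and all were above WT. *Lcn2*, which binds bacterial iron carriers, was at 232, 269.7 and 244 FPKM, against 37.8, 43.9 and 34.2 FPKM in WT (2.69), and it is also a product of neutrophils.

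Of 7 genes of prostaglandin and leukotriene synthesis 6 were higher and 1 lower, against 17.9% and 19.8% of all tested genes. *Ptgs2*, the inducible cyclooxygenase COX-2 with 6 TATTTAT matches, was at 85.9, 109 and 57.3 FPKM in TTP-/- libraries, against 8.6, 5.55 and 9.30 FPKM in WT libraries (3.39). *Alox5ap*, which presents arachidonic acid to 5-lipoxygenase, rose by 2.40, and *Ltc4s*, leukotriene C4 synthase, fell by 0.90. Of 6 genes of nitric oxide, arginine and itaconate metabolism 5 were higher and 1 lower. *Nos2*, the inducible nitric oxide synthase, was at 5.05, 8.43 and 3.94 FPKM, against 0.342, 0.417 and 0.399 FPKM in WT (3.54), and *Acod1*, which makes itaconate, at 141, 186 and 103 FPKM, against 16.2, 16.6 and 16.6 FPKM in WT (3.07). *Odc1*, which turns ornithine into polyamine precursors, fell by 0.53.

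Lysosomal genes rose together: 16 of 19 were higher and 1 lower, against 17.9% and 19.8% of all tested genes. Their median was 1.12. *Cd68*, a lysosomal glycoprotein of phagocytes, was at 71.8, 95.4 and 57.1 FPKM in TTP-/- libraries, against 9.18, 9.61 and 10.2 FPKM in WT libraries (2.91). *Ctsd*, cathepsin D, rose by 2.44, *Ctsb*, cathepsin B, by 1.68 and *Psap*, the precursor of the saposins, by 1.65. All 16 were highest in the second TTP-/- library. The lower gene, *Ctsh* (cathepsin H, -0.29), lost its call whichever single library was left out (adjusted p of 0.0600 to 0.0988), and under TPM scaling.

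Of 11 NRF2 targets and related genes 10 were higher and 1 lower, against 17.9% and 19.8% of all tested genes. The lower call was lost without the first or the third TTP-/- library. *Hmox1*, heme oxygenase, was at 53.9, 124 and 44.7 FPKM in TTP-/- libraries, against 6.21, 6.85 and 7.40 FPKM in WT libraries (3.28). *Nqo1*, a quinone reductase, rose by 1.21 and *Gclm*, of glutathione synthesis, by 1.05. Of 20 genes of glycolysis and the hypoxia response 13 were higher and 1 lower, with a median of 0.60. *Slc2a1*, the glucose transporter GLUT1, was at 2.17, 2.52 and 2.18 FPKM, against 0.800, 0.972 and 0.890 FPKM in WT (1.28), *Hk3*, a myeloid hexokinase, rose by 2.51, and *Ndrg1*, a hypoxia-induced gene, fell by 0.93. Of 27 nuclear oxidative phosphorylation subunits 5 were lower, a share near the 19.8% of all tested genes. None was higher, against 17.9% of all tested genes, and the median was -0.18 against -0.06. Under TPM scaling 2 were higher and 1 lower. Without the first TTP-/- library, and likewise without the second or the third WT library, 1 was lower, without the third TTP-/- library 2 were, and without the first WT library 3 were. *Cox4i1*, of cytochrome c oxidase, was at 28.8, 34.9 and 30.5 FPKM in TTP-/- cells, against 45.6, 56.6 and 47.5 FPKM in WT cells (-0.67).

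Messages of the translation apparatus were lower. Of 21 tested cytosolic ribosomal protein genes 14 were lower and none higher, against 19.8% and 17.9% of all tested genes. Their median was -0.65, and 12 stayed lower under TPM scaling. *Rpl32*, of the large subunit, was at 80.5, 109 and 92.5 FPKM in TTP-/- libraries, against 157, 195 and 187 FPKM in WT libraries (-0.94), without overlap. Reads of these genes can be shared with their processed pseudogenes. Of 684 tested processed pseudogenes of all kinds 209 were lower and 36 higher. *Rpl34-ps1* (-1.27) and *Rpl37* (-1.27) were among the 12 largest falls at 5 FPKM or more without overlap. The values of ribosomal protein genes are therefore uncertain gene by gene.

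Of 15 genes of sterol synthesis and efflux 8 were lower and 3 higher. *Cyp51*, lanosterol demethylase, fell by 0.69, whereas *Ch25h*, which makes 25-hydroxycholesterol, was at 39.4, 56.1 and 37.3 FPKM in TTP-/- libraries, against 6.35, 5.63 and 6.35 FPKM in WT libraries (2.81). Under TPM scaling 4 of the 8 stayed lower. All 6 tested mitosis genes were higher, among them *Ube2c*, of the anaphase-promoting complex pathway (2.36), and *Mki67*, the proliferation antigen, at 3.52, 4.59 and 2.87 FPKM in TTP-/- cells, against 1.07, 0.740 and 0.891 FPKM in WT cells (1.90). With read counts and a minimum of 10 reads in place of the FPKM filter, 23 of 23 mitosis genes were higher, where 21.6% of all 13620 genes so tested were. The DNA replication genes were divided, 4 higher and 4 lower of 16, near the background. Of 7 genes of the integrated stress response 4 were higher and 2 lower, with *Ddit4*, an inhibitor of mTORC1, highest (1.76) and *Slc7a5*, an amino acid transporter, lowest (-0.83).

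Most tested marker genes of the dendritic cells were lower, and those of macrophages and granulocytes were higher for the most part. Of 13 tested dendritic cell markers 10 were lower and 1 higher, against 19.8% and 17.9% of all tested genes. Without the first TTP-/- library, without the first or the second WT library, and under TPM scaling, 6 were lower. *Zbtb46*, a transcription factor of conventional dendritic cells, was at 1.07, 0.948 and 1.19 FPKM in TTP-/- libraries, against 2.02, 1.96 and 1.94 FPKM in WT libraries (-0.83). *Itgax*, encoding CD11c, the surface protein commonly used to define these cells, was higher, at 12.3, 12.3 and 11.2 FPKM, against 4.27, 4.45 and 4.81 FPKM in WT (1.39). The summed level of the dendritic cell markers was 10473 to 12094 FPKM in TTP-/- libraries and 19855 to 21215 FPKM in WT libraries, most of it from *Ccl22* and *Ccl17*. *Flt3*, the receptor that marks dendritic cell precursors, stayed below the filter with at most 917 reads in TTP-/- libraries and 733 in WT libraries, and *Clec9a* and *Xcr1*, of cross-presenting dendritic cells, had at most 47 and 20 reads in any library. Plasmacytoid dendritic cell markers were divided: of 3 tested 1 was higher (*Irf7*, an interferon regulatory factor, 0.68) and 1 lower (*Spib*, a transcription factor, -1.34). A further 4 stayed below the filter. The sum of the list was 475 to 505 FPKM in TTP-/- libraries and 319 to 341 FPKM in WT libraries. Most of that sum came from *Irf7* and *Bst2*. *Bst2* did not pass the test and is also on the list of interferon-stimulated genes.

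Of 10 tested macrophage and monocyte markers 9 were higher and 1 lower, and their sum was 175 to 248 FPKM in TTP-/- libraries and 38.8 to 41.8 FPKM in WT libraries. *C1qa*, a complement component of resident macrophages, rose by 2.40 and *Apoe*, an apolipoprotein of macrophages, by 2.49. All 16 tested neutrophil markers were higher, against 17.9% of all tested genes, and 6 were below the filter. Their sums were 638 to 699 FPKM in TTP-/- and 89.2 to 112 FPKM in WT libraries. *Ngp*, a neutrophil granule protein, was at 195, 169 and 220.2 FPKM in TTP-/- libraries, against 24.8, 30.1 and 23.3 FPKM in WT libraries (2.89), and *S100a8*, a subunit of calprotectin, rose by 2.88.

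All 7 tested eosinophil markers were higher too, and 2 were below the filter. Their sums were 129.6 to 167 FPKM in TTP-/- and 17.1 to 20.7 FPKM in WT libraries. *Prg2*, the major basic protein, was at 55.3, 48.7 and 68.9 FPKM in TTP-/- cells, against 6.10, 6.88 and 5.54 FPKM in WT cells (3.19), and *Epx*, eosinophil peroxidase, rose by 3.37. Of 5 basophil and mast cell markers 4 were higher (sums of 7.89 to 10.4 FPKM in TTP-/- and 2.62 to 3.84 FPKM in WT libraries), among them *Mcpt8*, a basophil protease, by 2.44. Of 11 B lineage markers in the data 9 were below the filter. The 2 tested, the immunoglobulin genes *Igkc* (3.20) and *Ighm* (3.07), were higher. Of 13 tested immunoglobulin variable genes 10 were higher, where 17.9% of all tested genes were. The filter takes the mean of all 6 libraries, so that a gene low in WT libraries can pass it through its TTP-/- reads. The count of 10 is therefore a description and no result about these genes as a group. The same holds for the counts of macrophage, neutrophil, eosinophil, basophil and B lineage markers. *Ms4a1*, the B cell surface marker CD20, had at most 4 reads in any library. Among megakaryocyte genes *Pf4* rose by 2.78. *Cd3e*, of T cells, had at most 6 reads in any library, and the T and NK cell sum was 1.03 to 1.29 FPKM in TTP-/- libraries and 1.51 to 2.04 FPKM in WT libraries. The tested member of that list, *Cd8a*, also carried by a dendritic cell subset, fell by 1.33. The part of these cell types in the other results was not tested.

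The 3 TTP-/- libraries differed among themselves in the genes that rose. Of the 629 genes that rose by at least 1 on the log2 scale, 379 (60.3%) were highest in the second TTP-/- library, against 39.3% of all tested genes. The ratio of that library to the mean of the other TTP-/- libraries had a median of 1.4 over the 9 macrophage and monocyte markers that rose, 1.48 over the acute-phase genes and 1.25 over the lysosomal genes. It was 0.849 over the neutrophil markers and 0.850 over the eosinophil markers, and all 7 eosinophil markers were highest in the third TTP-/- library. The 9 macrophage and monocyte markers were all highest in TTP-/- library 2. The 16 neutrophil markers were divided, with 2, 6 and 8 of them highest in TTP-/- libraries 1, 2 and 3. Macrophage and eosinophil markers thus ranked the TTP-/- libraries differently, and the neutrophil markers shared no highest library. Without the second TTP-/- library 1308 genes were higher and 1347 lower.

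**Figure D5:**
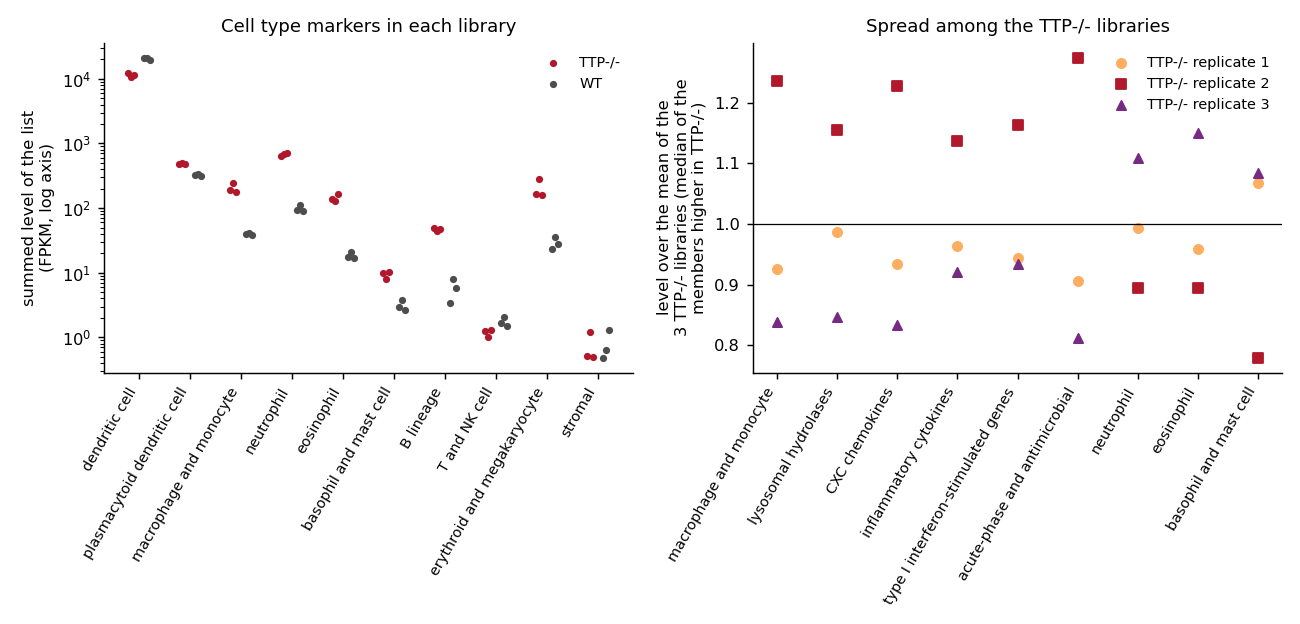
Left, summed FPKM (log axis) of each marker list in the 3 TTP-/- and 3 WT libraries, 1 point per library. The sums of the plasmacytoid dendritic cell, macrophage, neutrophil, eosinophil, basophil and mast cell, B lineage, and erythroid and megakaryocyte lists are higher in every TTP-/- library, those of the dendritic cell and the T and NK cell lists are lower, and stromal sums overlap. Right, level of each TTP-/- library over the mean of the 3, as the median over the members that were higher: the second library is the highest for macrophage markers and the third for eosinophil markers.

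Among genes at 5 FPKM or more without overlap between the groups, the largest falls were smaller than the largest rises. *Rgs10*, a regulator of G protein signalling, was at 1.95, 1.91 and 2.34 FPKM in TTP-/- libraries, against 7.22, 9.08 and 7.55 FPKM in WT libraries (-1.89, SE 0.122, adjusted p = 3.85e-05). *Serpinb9b*, of the granzyme B inhibitor family, fell by 1.41 and *Slc27a3*, a fatty acid transport protein, by 1.26. A lack of overlap was a condition for naming these genes and is no result about them. Among the rises at that level that no list held, *Ly6i*, of the Ly6 family of surface proteins, was at 25.9, 47.5 and 23.0 FPKM in TTP-/- cells, against 2.82, 3.06 and 2.48 FPKM in WT cells (3.41). *Ly6a*, which encodes the related surface protein Sca-1, rose by 3.26 and *Ifit1bl1*, of the IFIT family, by 3.64. The second TTP-/- library was the highest for *Ly6i* and *Ly6a*.

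Of 340 tested long non-coding genes 48 were higher and 69 lower, near the 17.9% and 19.8% of all tested genes. *Gm15655* (2.81), *F630028O10Rik* (2.74) and *Gm14023* (2.62) rose most, and *Dmrta2os* (-1.99), *Gm5602* (-1.73) and *4930520O04Rik* (-1.49) fell most. The counting is not stated to use strand for these genes, so that reads of an antisense gene and of its partner may be mixed. *Gm14023* was at 8.09, 12.2 and 6.45 FPKM in TTP-/- libraries, against 1.24, 1.32 and 1.39 FPKM in WT libraries. It lies at chr2:129297370-129307826 on the plus strand and overlaps *Il1a* (chr2:129299610-129309972, minus strand), which rose by 2.74. Whether its reads are apart from those of *Il1a* was not tested.

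No read was found in any WT library for 945 genes and in any TTP-/- library for 458 genes, and few of these had reads enough to speak of a difference. *Igkv10-94*, an immunoglobulin kappa variable gene, had 20, 22 and 29 reads in TTP-/- libraries and 0 in WT libraries. *Sv2b*, a synaptic vesicle protein, had 0 reads in each TTP-/- library and 26, 24 and 29 in WT libraries. A count of 0 in every library of a genotype does not exclude a low level of the message.

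The chromosomal surroundings of *Zfp36* were called about as often as the rest. Of 111 tested genes within 5 Mb, 22 were higher and 20 lower, 37.8% against 37.7% of all genes. The 5 largest changes there were rises: *B3gnt8*, a glycosyltransferase (3.15), *Plaur*, the urokinase receptor (2.82), *Hamp*, hepcidin (2.59), *Ffar2*, a receptor for short-chain fatty acids (2.45), and *Rasgrp4*, a mast cell and myeloid Ras activator (2.19).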

How the data were processed

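RNA-Seq of BMDCs after 9 h of LPS was taken from the 9 h table of the series, with 3 TTP-/- and 3 WT libraries. The authors used cutadapt for trimming of the single-end reads, STAR 2.5 for alignment to GRCm38/mm10 and DESeq2 for each time point, and the read counter and its annotation are not given in the sources used here. The deposited FPKM values were found to be size-factor-scaled read counts per kilobase: multiplied by size factor and length, 100% of them gave whole reads (within 0.01), and for 88.0% of 7435 well covered genes the length used was the gene span with introns (within 2%). The deposited signal column, the authors' mean normalised count per gene, served only to recover these reads. The authors' fold change and p-value columns were not used.

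Gene symbols came from the table (15654), from GENCODE M21 (5012, including 22 date-like names replaced), and 222 IDs stayed unnamed. The 7745 genes whose mean over the 6 libraries reached 0.5 FPKM (median 618 reads) were tested with limma 3.58.1 (R 4.3.3) with a mean-variance trend on log2(FPKM + 0.1), without a replicate block, and p-values were adjusted by Benjamini-Hochberg over all genes tested. Because introns count as length, the filter left out 2703 of the 9302 genes with at least 100 reads. Limma with voom on the recovered reads was run as an alternative. Named genes were *Zfp36*, *Tnf*, *Il6*, *Cxcl2*, *Il1b* and *Il1a*, the 12 largest rises and falls at 5 FPKM or more without overlap, members of fixed lists, markers, the most abundant genes, genes at 0 in a genotype, called genes near *Zfp36* and non-coding genes. Some genes these rules name are not reported here. The members and lists were chosen with earlier results of these data known. The procedure was tested on simulated data.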

Additional observations from a re-analysis of the deposited data

How the results depend on the processing

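The numbers of called genes depended on the filter and the scaling, and the direction of each gene that was called did not. Against 1389 higher and 1530 lower of 7745 genes tested, TPM scaling gave 1573 and 804 of the same genes. Some settings also changed how many genes were tested, so that their counts are not directly comparable. Lengths of exons in place of gene spans gave 2307 and 2152 of 11683, and a filter at 5 FPKM 388 and 682 of 2035. No filter gave 2623 and 1795 of 20888, and voom on the recovered reads 2946 and 2409 of 13620. Of the 7745 genes, an adjusted p of 0.01 left 994 higher and 808 lower. A minimum absolute log2 fold change of 1 left 629 and 165 and dropped *Zfp36* (-0.46). Leaving out single libraries gave 1111 to 1308 higher and 1049 to 1347 lower genes. The labels do not say whether the replicate numbers pair the libraries. The correlations of same-numbered deviations from the group means were 0.203, 0.003 and -0.046, and the others ran from -0.156 to 0.153. With 3 libraries a genotype these values cannot decide it. A fit with the replicate block called 1305 higher and 1376 lower genes. With the longer motif TTATTTATT, 7.56% of the genes called higher held a match, against 7.07% of all. The edgeR quasi-likelihood fit on the recovered reads was not run, and voom on these reads took its place. Of the named genes that were called, *Mx1*, *Mx2*, *Ebi3*, *Ccr7*, *Ctsh*, *Ccl22* and *Actb* lost the call in a setting other than a stricter threshold. Among genes that did not pass the test, the sign turned in some settings, and the cause was not tested: *Nfkbia* (-0.14) to 0.0040 under TPM scaling and 0.061 under quantile normalization, and, over single libraries left out, *Cd274* between -0.019 and 0.14, *Dusp1* between -0.0084 and 0.12, *ND1* between -0.076 and 0.12 and *COX1* between -0.012 and 0.24. With 3 libraries a genotype the spread is estimated from few samples, and genes under 10 reads a library rest on few counts.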

Other observations

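Further groups of genes, put together after their values were seen and therefore described without a test of the group, were also higher in TTP-/- BMDCs. All 5 tested Fc receptor genes were called higher, with a median log2 fold change of 2.55. *Fcgr1*, the high-affinity IgG receptor, was at 7.74, 10.4 and 6.80 FPKM in TTP-/- libraries, against 0.921, 1.34 and 1.12 FPKM in WT libraries (2.77). Of 9 C-type lectin receptor genes 7 were higher and none lower, led by *Clec4e* (3.11), the receptor Mincle for mycobacterial glycolipid. All 12 tested complement genes were higher, with a median of 2.12. *Cfb*, factor B of the alternative pathway, was at 44.5, 75.3 and 37.5 FPKM in TTP-/- libraries, against 5.91, 6.66 and 6.05 FPKM in WT libraries (2.99). The groups did not overlap for *Fcgr1* or *Cfb*.

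Genes of iron handling, of the extracellular protease systems and of coagulation followed the same direction. Of 10 iron genes 8 were higher and 1 lower, a lower call that was lost without the first WT library and under TPM scaling. *Fth1*, the ferritin heavy chain, was at 5917, 7600.5 and 4981 FPKM in TTP-/- libraries, against 1851, 2109 and 1750.0 FPKM in WT libraries (1.68), and was among the 8 genes with the highest FPKM in TTP-/- cells. *Slc11a1*, the iron transporter of phagosomes, rose by 2.40. Of 8 genes of coagulation and plasminogen activation 6 were higher and none lower, among them *F10*, coagulation factor X (2.74), and *Plau*, urokinase (2.63). Of 9 matrix metalloproteinases and inhibitors 6 were higher and 1 lower, among them *Mmp14*, a membrane-bound collagenase, at 28.5, 28.7 and 20.3 FPKM in TTP-/- cells, against 3.10, 3.04 and 3.08 FPKM in WT cells (3.01). Markers of macrophages and granulocytes, which carry many of these genes, were higher in the same libraries, and their part in these values was not tested.

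Translation factors fell beside the ribosomal protein genes: of 20 tested, 11 were lower and none higher, and 6 were lower and 1 higher under TPM scaling. *Eef1a1*, the elongation factor that brings aminoacyl-tRNA to the ribosome, was at 145, 141 and 158 FPKM in TTP-/- libraries, against 244, 251 and 244 FPKM in WT libraries (-0.73). *Eif3f*, of the initiation factor eIF3, fell by 0.76. Further single falls were *Cst3*, the protease inhibitor cystatin C, at 2272, 2226 and 2552 FPKM in TTP-/- cells, against 4717, 5505 and 4946 FPKM in WT cells (-1.10), and *Aldh1a2*, which makes retinoic acid in dendritic cells, at 1.78, 1.84 and 1.86 FPKM, against 4.65, 4.89 and 4.28 FPKM in WT (-1.29).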
